A study of Homo sapiens with 12 samples.

Results

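The 10 genes described here were chosen by name as an autophagy and mitophagy group, with earlier results of these arrays known. They are BNIP3, BNIP3L, SQSTM1, MAP1LC3B, GABARAPL1, ULK1, WIPI1, ATG12, BECN1 and DEPP1. All 10 had values among the 11963 genes measured, through 20 probe sets that each name only that gene, and the values given for a gene come from the one of its probe sets that was brightest on average over the 12 arrays.

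Autophagy delivers cell contents to the lysosome inside a double membrane, and mitophagy is its form that takes up mitochondria. The ULK1 kinase and the BECN1 lipid kinase complex start the membrane, WIPI proteins and the ATG12 conjugation system extend it, and proteins of the LC3 and GABARAP families are attached to it. Receptors such as SQSTM1, and on mitochondria BNIP3 and BNIP3L, tie cargo to LC3 and GABARAP. In renal carcinoma cells without VHL, the hypoxia-inducible factors (HIF) stay active in normal oxygen, and BNIP3 and BNIP3L are known HIF targets.

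The cells were RCC4, an established line from a clear cell renal carcinoma, on 1-colour Affymetrix arrays with 3 arrays in each of 4 groups. The groups were cells with VHL put back (VHL) without cystine, VHL cells in full medium, cells carrying an empty vector (Vec) without cystine, and Vec cells in full medium, each for 6 h. The genome-wide comparisons ask what cystine loss does in each line and what VHL does in each medium. Every array holds RCC4 RNA, and both media were DMEM with 10% serum. The serum is described as dialysed in the deprived medium alone, so if the control serum was not dialysed, cystine loss and dialysis cannot be told apart. The labels call the 3 samples of a group biological replicates without naming separate cultures, and they do not say whether the VHL or the Vec line is a clone or a pool, so p-values measure the spread between these samples, which may be technical, and VHL and any other difference between the lines cannot be told apart.

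Values are log2 expression values as deposited. Array medians ran from 7.12 to 7.18, and 25% of genes had a mean under 5.95, a level called dim here. Of 11 renal markers 10 had values, and 8 of those, among them PAX8 and KRT18, were above the dim level, while LRP2 and CUBN, which define mature proximal tubule, were not. All 4 endothelial markers and PTPRC, CD14 and CD3E of 5 blood markers were dim. Of 10 HIF target genes chosen as a check of the lines (BNIP3 and BNIP3L not among them), 9 had values. All 9 were called lower in VHL cells in each medium, beside 23% of all genes in each. Their median log2 difference was -1.36 in deprived and -1.42 in control medium. All 7 measured genes of an amino acid shortage list of 8 were called higher without cystine in each line, by a median of 1.59 in VHL cells and of 1.40 in Vec cells. Over all genes 6.16% were called higher in VHL cells and 2.11% in Vec cells. Both lists were chosen with earlier results of these arrays known.

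Promoter sequences were available for 9 of the 10 genes, taken from RefSeq (GRCh38.p14) as the 250 bases before the annotated start. For BECN1, on the minus strand, the window (chr17:42823880-42824129) lies inside the span of the gene (42810132 to 42824282) and not before its outer end. The promoters of BNIP3 and DEPP1 are shown because these genes differed most between VHL and Vec cells among those 9, and that of MAP1LC3B because it rose without cystine in both lines. Capitals mark matches on either strand, read 5′ to 3′ along the gene, to ACGTG or GCGTG (the core of the hypoxia response element), TCACGTGA (the CLEAR element of TFEB), TGATGNAA (the ATF4 composite element) or GTAAACA (the FOXO element). BNIP3 lies at chr10:131981924-131982173 on the minus strand, DEPP1 at chr10:44978810-44979059 on the minus strand and MAP1LC3B at chr16:87392086-87392335 on the plus strand.
BNIP3: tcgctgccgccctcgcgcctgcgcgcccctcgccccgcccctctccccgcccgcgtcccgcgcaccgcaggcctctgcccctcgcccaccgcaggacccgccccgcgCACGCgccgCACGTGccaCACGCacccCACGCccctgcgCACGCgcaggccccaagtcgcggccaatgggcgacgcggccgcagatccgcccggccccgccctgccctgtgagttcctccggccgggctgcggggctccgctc
DEPP1: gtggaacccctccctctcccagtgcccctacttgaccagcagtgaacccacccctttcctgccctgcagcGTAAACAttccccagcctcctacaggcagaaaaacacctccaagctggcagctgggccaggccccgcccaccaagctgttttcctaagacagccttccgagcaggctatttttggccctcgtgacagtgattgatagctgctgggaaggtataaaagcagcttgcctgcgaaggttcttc
MAP1LC3B: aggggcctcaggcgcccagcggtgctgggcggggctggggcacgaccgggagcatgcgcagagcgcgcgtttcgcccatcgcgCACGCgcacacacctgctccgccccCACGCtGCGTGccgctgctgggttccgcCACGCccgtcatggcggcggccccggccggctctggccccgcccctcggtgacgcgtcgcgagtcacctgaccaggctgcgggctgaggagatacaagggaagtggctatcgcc
BNIP3 holds 4 matches to GCGTG, at 143, 125, 116 and 104 bases before the start, and 2 to ACGTG at 134 and 133 bases, which overlap as the 2 strands of 1 CACGTG. MAP1LC3B holds 4 matches to GCGTG, and DEPP1 holds no match to either core and 1 to GTAAACA, 180 bases before the start. Among 27305 RefSeq promoters of this length, 43.1% hold ACGTG or GCGTG, 3.0% GTAAACA, 3.2% TGATGNAA and 0.9% TCACGTGA, and of the 9 promoters here 4 hold ACGTG or GCGTG. These are letter matches in a short window and show no binding.

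For DEPP1, BNIP3, BNIP3L and SQSTM1 the lines differed far more than the media did. MAP1LC3B differed more between the media (log2 0.23 in VHL and 0.20 in Vec cells) than between the lines (0.15 in deprived and 0.12 in control medium). GABARAPL1 gave 0.37 in VHL and 0.14 in Vec cells between the media, and 0.28 in deprived and 0.05 in control medium between the lines. Whether media or lines differed more was not tested for MAP1LC3B or GABARAPL1. In VHL cells, DEPP1, BNIP3 and BNIP3L were lower and SQSTM1 was higher than in Vec cells in each medium, with groups that did not overlap. The groups of 8 of the 10 genes did not overlap in deprived medium, against 54.2% of all genes, and those of 8 did not in control medium, against 53.2%. The limma test called 8 of the 10 genes in deprived medium, against 47.2% of all genes, and 7 of the 10 in control medium, against 46.1% of all genes. In deprived medium 5 of the called genes were higher in VHL cells (24.2% of all genes) and 3 were lower (23% of all genes), and in control medium 4 were higher (23.1%) and 3 were lower (23%). The median log2 difference of the 10 genes was 0.14 in deprived and 0.08 in control medium, beside 0.00 over all genes in each, and their median size without sign was 0.23 and 0.24, beside 0.16 and 0.15 over all genes. An array reads bulk RNA, so fewer cells with a transcript and less of it per cell cannot be told apart.

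**Figure D1:**
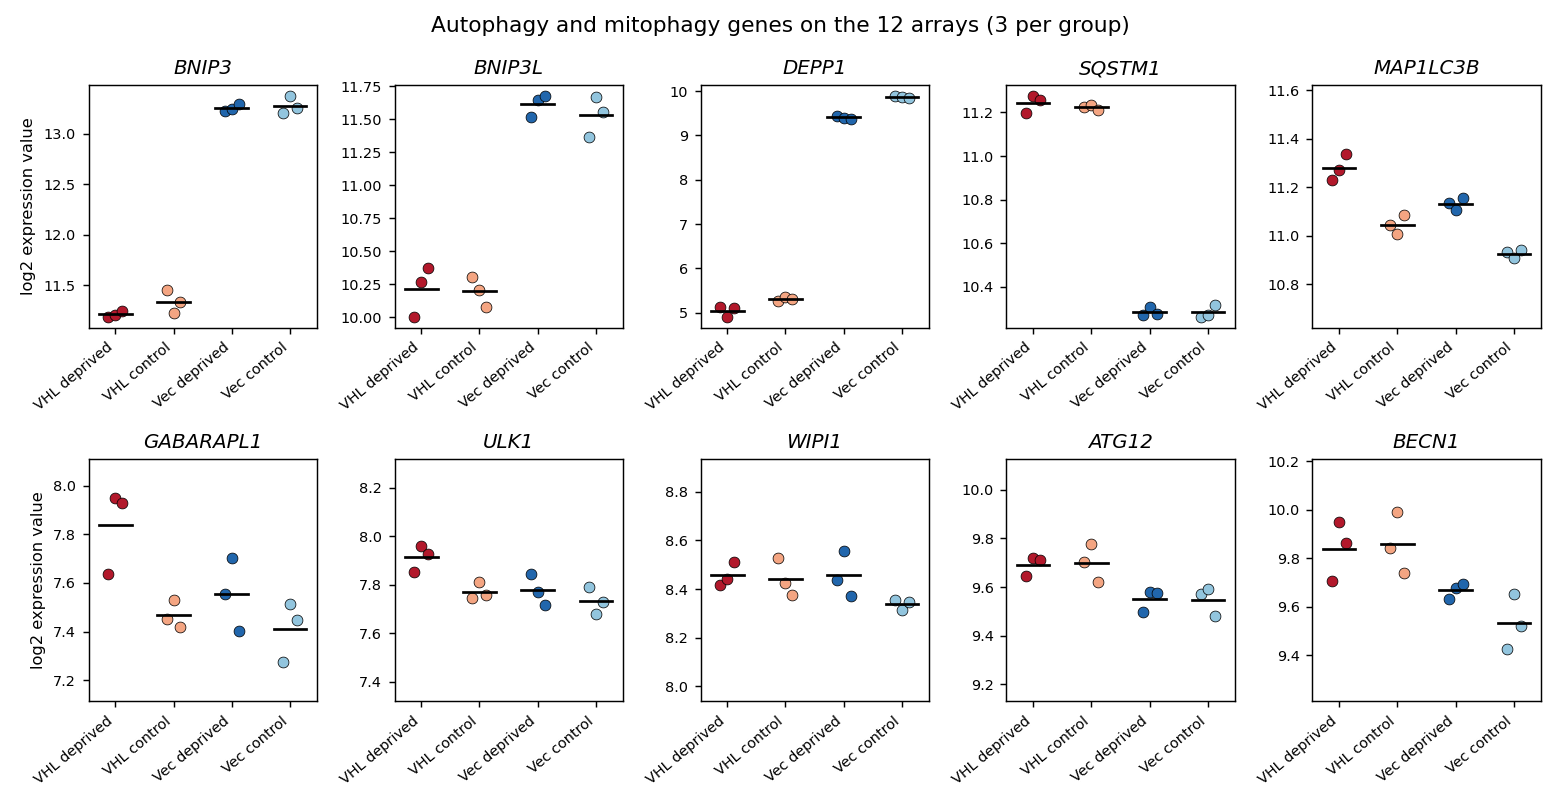
Log2 expression values (y axis, a separate scale for each gene) of the 10 genes on the 12 arrays, with points for single arrays and bars for means of 3. DEPP1 lies between 4.91 and 5.36 in all VHL samples and between 9.37 and 9.89 in all Vec samples, and MAP1LC3B is higher in deprived than in control medium in each line.

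BNIP3, a mitophagy receptor in the outer mitochondrial membrane (chromosome 10, 131967684 to 131981923), had log2 values of 11.19, 11.20 and 11.25 in VHL deprived cells, against 13.22, 13.24 and 13.30 in Vec deprived cells. In control medium the values were 11.46, 11.22 and 11.33 in VHL cells, against 13.21, 13.37 and 13.25 in Vec cells. Every VHL array lay below every Vec array. BNIP3 was 4.11-fold lower in VHL cells in deprived medium (log2 -2.04 ± 0.06, limma adjusted p = 2.89e-11, n = 3 per group) and 3.84-fold lower in control medium (-1.94 ± 0.06, limma adjusted p = 4.62e-11). Its other probe set gave -2.20 and -2.40. The 20 nearest measured genes, 10 on each side over 7.61 Mb, had a median difference of -0.28 in deprived and -0.33 in control medium. Of these 20, 12 were called lower in each medium, beside 23% of all genes. In deprived medium 1 was called higher (24.2% of all genes), and in control medium 0 were (23.1%). This neighbourhood was looked at after the values were seen, and its part in the BNIP3 difference was not tested.

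BNIP3L, the closest relative of BNIP3 and also a mitophagy receptor, had log2 values of 10.01, 10.27 and 10.38 in VHL deprived cells, against 11.52, 11.65 and 11.68 in Vec deprived cells. In control medium it had 10.30, 10.21 and 10.08 in VHL cells, against 11.36, 11.67 and 11.55 in Vec cells. It was 2.63-fold lower in VHL cells in deprived medium (log2 -1.40 ± 0.10, limma adjusted p = 7.72e-08) and 2.52-fold lower in control medium (-1.33 ± 0.10, limma adjusted p = 1.26e-07), and the other probe set gave -1.32 and -1.43. Its 20 nearest measured genes had median differences of 0.00 and -0.05. Of these, 6 were called higher and 4 lower in deprived medium (24.2% and 23% of all genes). In control medium 5 were called higher and 7 lower (23.1% and 23%).

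DEPP1, a small protein induced by FOXO factors and tied to autophagy in human cells (chromosome 10, 44976128 to 44978809), showed the greatest difference of the 10. Its log2 values were 5.13, 4.91 and 5.10 in VHL deprived cells, against 9.44, 9.40 and 9.37 in Vec deprived cells. In control medium they were 5.28, 5.36 and 5.30 in VHL cells, against 9.89, 9.86 and 9.84 in Vec cells. VHL cells were thus in the dim range, and Vec cells were not. The difference was -4.36 ± 0.06 in deprived medium (20.5-fold lower in VHL cells, limma adjusted p = 3.49e-14) and -4.55 ± 0.06 in control medium (23.4-fold lower, limma adjusted p = 1.48e-14), and DEPP1 ranked 1 of the 11963 genes by p in both media. By size of difference it ranked 10 and 9. Because VHL values are dim, these folds are limited by background signal. Its 20 nearest measured genes, over 4.75 Mb, had median differences of -0.18 in deprived and -0.06 in control medium. In deprived medium 9 of these neighbours were called lower and 1 higher (23% and 24.2% of all genes). In control medium 8 of these neighbours were called lower and 0 higher (23% and 23.1% of all genes). Their part in the DEPP1 difference was not tested.

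The second DEPP1 probe set did not show a difference of this size. It read 7.11, 7.16 and 7.13 in VHL deprived cells, against 7.24, 7.46 and 7.26 in Vec deprived cells, and 6.97, 7.02 and 7.22 in VHL control cells, against 7.74, 7.24 and 7.41 in Vec control cells. VHL minus Vec was -0.19 ± 0.11 in deprived medium (limma adjusted p = 0.191 over all probe sets that name 1 gene) and -0.39 ± 0.11 in control medium (0.00869). The direction was shared and the sizes were not. Where in the transcript each probe set binds is not given in the sources used here. The first was used because it was brighter on average over all arrays (7.41 against 7.25), and that lead came from Vec cells. In VHL cells the first averaged 5.05 in deprived and 5.31 in control medium, against 7.13 and 7.07 for the second. The choice was thus not independent of the line difference. The rank of DEPP1, its folds and its place as the greatest difference of the described genes rest on the first probe set.

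SQSTM1 (p62), a receptor for ubiquitin-tagged cargo that is itself degraded by autophagy (chromosome 5, 179806393 to 179838078), was higher with VHL. It had 11.20, 11.28 and 11.26 in VHL deprived cells, against 10.27, 10.31 and 10.27 in Vec deprived cells. In control medium it had 11.23, 11.24 and 11.21 in VHL cells, against 10.26, 10.27 and 10.32 in Vec cells. The groups did not overlap and spread by no more than 0.04 (SD). VHL cells were 1.94-fold higher in deprived medium (log2 0.96 ± 0.04, limma adjusted p = 8.43e-10) and 1.92-fold higher in control medium (0.94 ± 0.04, limma adjusted p = 1.07e-09), and the other probe set gave 1.19 and 1.20. Its 20 nearest measured genes had median differences of -0.05 and -0.02. Of these, 3 were called higher and 7 lower in deprived medium (24.2% and 23% of all genes). In control medium 5 were called higher and 6 lower (23.1% and 23%).

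**Figure D2:**
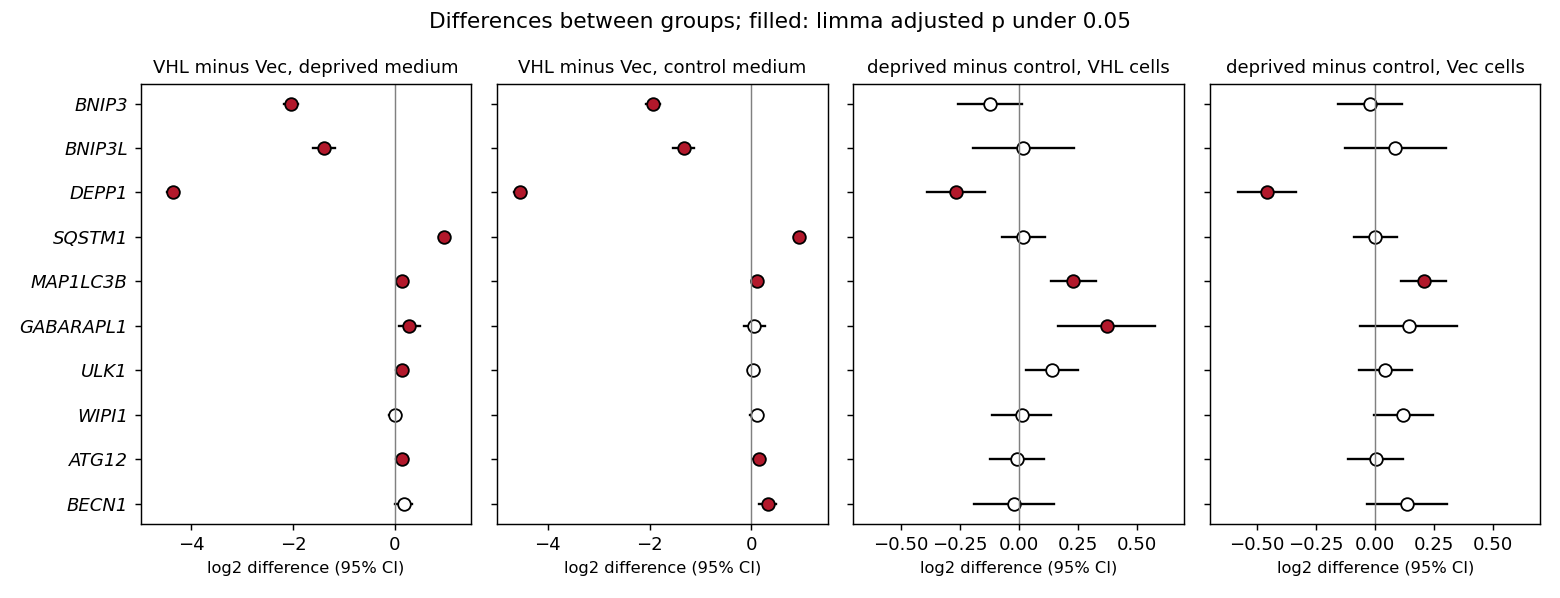
Log2 differences (x axis) of the 10 genes in 4 comparisons, with 95% confidence intervals as lines and filled points where the limma adjusted p was under 0.05. The x scales of the VHL minus Vec panels are wider than those of the deprivation panels. DEPP1, BNIP3 and BNIP3L lie far to the left and SQSTM1 to the right for VHL minus Vec, while the deprivation differences stay between -0.46 and 0.37.

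The other 6 genes differed little between the lines. BECN1, the regulatory subunit of the lipid kinase complex, had 9.71, 9.95 and 9.86 in VHL deprived cells, against 9.63, 9.68 and 9.70 in Vec deprived cells. In control medium it had 9.84, 9.99 and 9.74 in VHL cells, against 9.43, 9.65 and 9.52 in Vec cells. It was 1.25-fold higher with VHL in control medium (log2 0.32 ± 0.08, limma adjusted p = 0.00368) and was not called in deprived medium (0.17 ± 0.08, limma adjusted p = 0.0942), although the groups did not overlap in either. BECN1 was called in deprived medium with its second probe set (0.32, limma adjusted p = 4.15e-04), with the mean of its probe sets (0.25, adjusted p = 6.12e-04), with the replicate block (adjusted p = 0.0389) and without VHL deprived replicate 1 (0.24, adjusted p = 0.0290).

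ATG12, the ubiquitin-like protein joined to ATG5, gave 0.14 ± 0.05 in deprived medium (limma adjusted p = 0.0439) and 0.15 ± 0.05 in control medium (0.0331). Its 9.64, 9.72 and 9.71 in VHL deprived cells lay just above the 9.50, 9.58 and 9.57 of Vec deprived cells, and its 9.70, 9.78 and 9.62 in VHL control cells just above the 9.57, 9.59 and 9.48 of Vec control cells. The call was lost in deprived medium when any single array other than VHL deprived replicate 1 was left out (limma adjusted p between 0.0591 and 0.149), and in control medium when any single array other than VHL control replicate 3 or Vec control replicate 2 was left out (0.0508 to 0.142). It was also lost in deprived medium with centred arrays and when _x_at and _s_at probe sets were left out (0.0561 each), and in control medium when only the control groups were fitted (0.0694). A second probe set gave larger values, 0.40 and 0.36, and the third, which is dim, gave -0.000697 and 0.14.

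MAP1LC3B, the LC3 protein that marks autophagosomes, gave 0.15 ± 0.04 in deprived medium (limma adjusted p = 0.0151) and 0.12 ± 0.04 in control medium (0.0425). Its other probe set gave 0.02 and 0.08 and was not called in either medium. In deprived medium the call was lost without Vec deprived replicate 2 or VHL deprived replicate 3 (limma adjusted p = 0.0544 and 0.0730), and in control medium without any array other than VHL control replicate 2 (0.0714 to 0.137). The mean of its probe sets was not called in either medium (0.08 with 0.153, and 0.10 with 0.0862), and in control medium the call was also lost with quantile normalization (0.063) and when only the control groups were fitted (0.0767).

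GABARAPL1, a member of the GABARAP branch of the LC3 relatives, was higher with VHL in deprived medium (0.28 ± 0.09, limma adjusted p = 0.0242) and was not called in control medium (0.05 ± 0.09, 0.694). In deprived medium the groups overlapped, and the call needed every array other than VHL deprived replicate 1 and Vec deprived replicate 2 (limma adjusted p between 0.0550 and 0.111), and it was lost when only the deprived groups were fitted (0.0516). ULK1, the initiating kinase, gave 0.14 ± 0.05 in deprived medium (limma adjusted p = 0.0449) and 0.04 ± 0.05 in control medium (0.609). The ULK1 call did not survive the loss of VHL deprived replicate 2 or 3 or of Vec deprived replicate 2 or 3 (adjusted p up to 0.153), and it was lost when _x_at and _s_at probe sets were left out of the fit (0.0583), with quantile normalization (0.0521), with a variance trend and robust moderation (0.0891), when only the deprived groups were fitted (0.0803) and with the replicate block (0.0627). WIPI1, which binds the lipid made by the BECN1 complex, had 8.41, 8.44 and 8.51 in VHL deprived cells, against 8.44, 8.56 and 8.37 in Vec deprived cells. In control medium it had 8.53, 8.42 and 8.38 in VHL cells, against 8.35, 8.32 and 8.35 in Vec cells. Between the lines, its groups overlapped in deprived medium and did not overlap in control medium. WIPI1 was not called, with 0.00 (95% interval -0.12 to 0.13) in deprived and 0.10 (-0.02 to 0.23) in control medium.

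**Figure D3:**
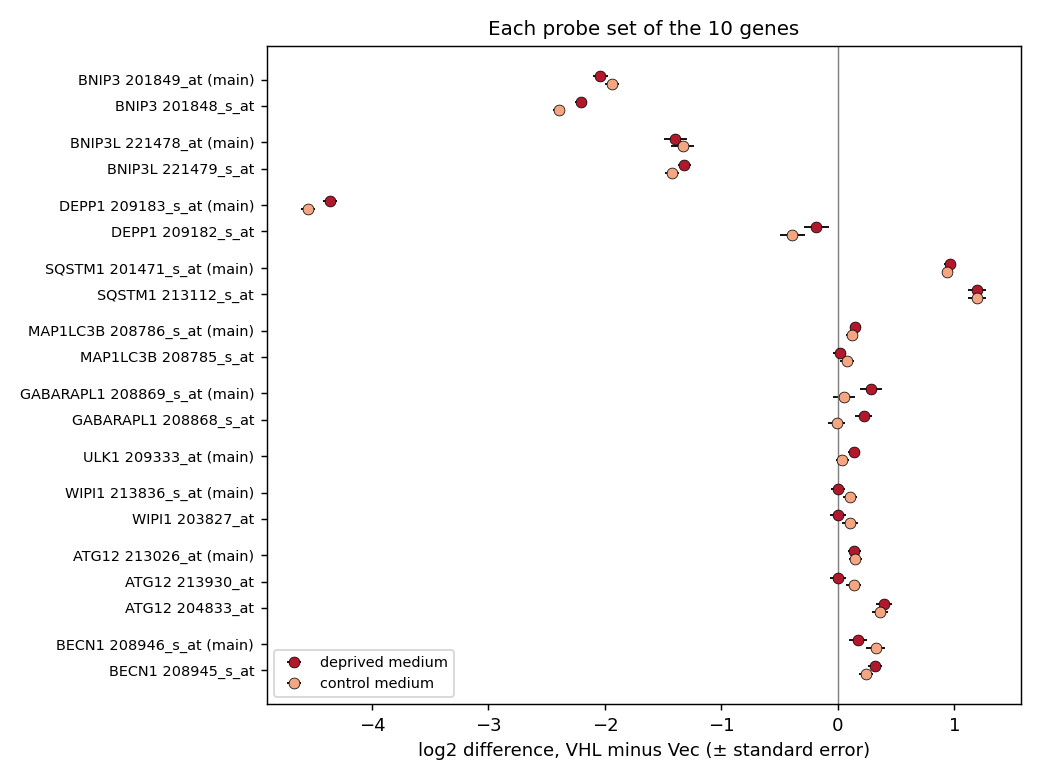
VHL minus Vec log2 differences (x axis, with standard errors) of all 20 probe sets of the 10 genes, in deprived and control medium. The probe sets of BNIP3, BNIP3L and SQSTM1 share a direction for each gene, with those of BNIP3 at -1.94 and -2.40 in control medium. The second probe set of DEPP1 lies at -0.19 and -0.39, far from the -4.36 and -4.55 of the first.

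A period of 6 h without cystine changed few of these genes. In VHL cells 3 of 10 were called, against 11.6% of all genes, with MAP1LC3B and GABARAPL1 higher (6.16% of all genes) and DEPP1 lower (5.48%). In Vec cells 2 of 10 were called, against 4.18% of all genes, with MAP1LC3B higher (2.11%) and DEPP1 lower (2.06%). The median difference was 0.02 in VHL cells and 0.06 in Vec cells, beside 0.01 over all genes in each.

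MAP1LC3B rose in both lines. It had 11.23, 11.27 and 11.34 in VHL deprived cells, against 11.04, 11.01 and 11.09 in VHL control cells, and 11.13, 11.11 and 11.15 in Vec deprived cells, against 10.93, 10.91 and 10.94 in Vec control cells. The groups did not overlap in either line, and the order of means was VHL deprived, Vec deprived, VHL control, Vec control. The rise was 1.17-fold in VHL cells (log2 0.23 ± 0.04, limma adjusted p = 0.00558) and 1.15-fold in Vec cells (0.20 ± 0.04, limma adjusted p = 0.0235). In Vec cells the call was lost when any 1 of the 6 arrays was left out (limma adjusted p between 0.0534 and 0.0785, with the difference between 0.19 and 0.22), while in VHL cells it was kept each time (0.00937 to 0.0281). It was also lost in Vec cells when only the Vec groups were fitted (0.0636). The other probe set gave 0.09 in VHL and 0.15 in Vec cells and was not called (0.371 and 0.212).

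GABARAPL1 had 7.64, 7.95 and 7.93 in VHL deprived cells, against 7.45, 7.53 and 7.42 in VHL control cells, with no overlap. In Vec cells it had 7.55, 7.70 and 7.40 in deprived medium, against 7.28, 7.51 and 7.45 in control medium, and the groups overlapped. It rose 1.29-fold in VHL cells (log2 0.37 ± 0.09, limma adjusted p = 0.0244) and gave 0.14 ± 0.09 in Vec cells (limma adjusted p = 0.507). The other probe set also rose in VHL cells (0.27, limma adjusted p = 0.0354). The call in VHL cells did not hold without VHL deprived replicate 2 or 3 or without VHL control replicate 1 or 3 (limma adjusted p between 0.0618 and 0.0838).

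DEPP1 fell by 0.46 ± 0.06 on the log2 scale in Vec cells (1.37-fold, limma adjusted p = 5.14e-04), where every deprived array lay below every control array, and the call was kept without each of the 6 arrays in turn (0.00247 to 0.00418). In VHL cells it fell by 0.27 ± 0.06 (limma adjusted p = 0.0101), within the dim range, and this call was lost when only the VHL groups were fitted (0.0522). The second probe set was not called in either line, with 0.06 in VHL cells (limma adjusted p = 0.773) and -0.14 in Vec cells (0.600). With the mean of both probe sets the VHL value was -0.10 and was not called (0.361).

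BNIP3, BNIP3L, SQSTM1, ULK1, WIPI1, ATG12 and BECN1 were not called in either line. BNIP3 gave -0.12 (95% interval -0.26 to 0.01) in VHL and -0.02 (-0.16 to 0.11) in Vec cells, and SQSTM1 gave 0.02 (-0.07 to 0.11) and 0.00 (-0.09 to 0.09). ULK1 had 7.85, 7.96 and 7.93 in VHL deprived cells, against 7.75, 7.81 and 7.76 in VHL control cells, which did not overlap, but its difference of 0.14 ± 0.05 missed the threshold (limma adjusted p = 0.0975). For 2 of these genes a second probe set was called in VHL cells where the first was not. BNIP3L gave 0.26 ± 0.06 with its second probe set (limma adjusted p = 0.0164) and 0.02 ± 0.10 with its main probe set, and BECN1 gave 0.22 ± 0.06 with its second probe set (0.0299) and -0.02 ± 0.08 with its main one. The groups of 4 of 10 genes did not overlap in VHL cells and those of 3 of 10 in Vec cells. These counts were near the shares of all genes, 30.6% and 22.7%. They included ULK1 in VHL cells and WIPI1 in Vec cells (0.12, limma adjusted p = 0.334), neither of them called.

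None of the 10 genes had a response that differed between the lines by limma's test of the difference, which called 0.134% of all genes (0.125% higher and 0.00836% lower), and at an unadjusted p under 0.05 the count was 1 of 10. That gene was DEPP1, whose fall was smaller in VHL cells by 0.19 ± 0.08 (unadjusted p = 0.0338, limma adjusted p = 0.464). GABARAPL1 gave 0.23 (95% interval -0.06 to 0.52) and MAP1LC3B 0.03 (-0.11 to 0.16), so differences of those sizes between the lines could not be told from 0 with 3 arrays per group. The call of GABARAPL1 in VHL cells and not in Vec cells is therefore not a shown difference between the lines.

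The surrounding pathway was read from 37 other measured autophagy and mitophagy genes in 7 lists, chosen with earlier results of these arrays known. In deprived medium 16 were higher and 7 lower with VHL, where 24.2% and 23% of all genes were, and in control medium 13 were higher and 10 lower, where 23.1% and 23% of all genes were. Their medians were 0.09 and 0.08. Without cystine 6 rose and 2 fell in VHL cells, and 6 rose and 0 fell by limma in Vec cells (8 and 1 at an unadjusted p under 0.05), with medians of 0.06 and 0.04. Over all genes 6.16% rose and 5.48% fell in VHL cells, and 2.11% rose and 2.06% fell in Vec cells.

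Among cargo receptors, relatives of SQSTM1 in role, 4 of 6 were higher and 1 lower with VHL in deprived medium. In control medium 3 were higher and 1 lower. Over all genes, 24.2% were higher and 23% lower in deprived medium, and 23.1% and 23% in control medium. NBR1, a receptor for ubiquitin-tagged cargo, was higher with VHL by 0.79 in deprived and 0.76 in control medium, and TAX1BP1, another such receptor, by 0.58 and 0.60. SQSTM1 itself did not move with cystine. Of the 6 other receptors, 3 rose in VHL cells (6.16% of all genes) and 4 in Vec cells (2.11%). CALCOCO2, a receptor for bacteria and damaged mitochondria, rose by 0.44 ± 0.05 in VHL cells (limma adjusted p = 2.29e-04) and by 0.57 ± 0.05 in Vec cells (4.52e-05). RETREG1, a receptor for parts of the endoplasmic reticulum, rose by 0.61 ± 0.06 in VHL cells (6.28e-05) and by 0.33 ± 0.06 in Vec cells (0.0117).

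Other mitophagy genes were set beside BNIP3 and BNIP3L. Over all genes, 24.2% were called higher and 23% lower with VHL in deprived medium, and 23.1% and 23% in control medium. Of 5 other measured mitophagy genes, PINK1, the kinase that marks damaged mitochondria, was lower with VHL by a log2 difference of -0.26 in deprived and -0.28 in control medium, while 3 were higher in deprived medium and 2 in control medium, among them FKBP8 at 0.27 and 0.17 and PHB2 at 0.15 and 0.17. None of the 5 was called for cystine loss by limma in either line, and at an unadjusted p under 0.05 the count was 1 in VHL cells and 0 in Vec cells. The 3 other LC3 and GABARAP relatives included GABARAPL2, higher with VHL by 0.31 and 0.33, and GABARAP, higher by 0.26 and 0.13, and none of the 3 was called by limma for cystine loss (at an unadjusted p under 0.05, 0 in VHL cells and 1 in Vec cells).

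In the initiation complex ATG13, a partner of ULK1, rose without cystine by 0.25 ± 0.04 in VHL cells (limma adjusted p = 0.00313) and by 0.19 ± 0.04 in Vec cells (0.0344), and ATG101, another partner, was lower with VHL by -0.28 and -0.30. Of 6 other genes of the BECN1 complex and its regulators, RUBCN, an inhibitor of autophagosome maturation, was higher with VHL by 0.32 and 0.43 and fell without cystine in VHL cells (-0.22), and ATG14, the subunit that directs the complex to autophagy, rose there (0.23). Of these 6, 3 were called higher and 0 lower with VHL in deprived medium (3 and 0 at an unadjusted p under 0.05). In control medium 2 were called higher and 1 lower. Without cystine 1 rose and 2 fell in VHL cells (6.16% and 5.48% of all genes). Beside WIPI1, its relative WDR45 was lower with VHL by -0.74 in deprived and -0.66 in control medium and rose without cystine in Vec cells (0.30). Of 6 other measured genes of membrane supply and WIPI proteins, 3 were called lower with VHL in deprived medium and 4 in control medium. In each medium 2 were called higher, WIPI2 (0.29 in deprived and 0.18 in control medium) and ATG2B (0.44 in each). In the conjugation system ATG7, the activating enzyme for ATG12, was lower with VHL by -0.36 and -0.52, and ATG4A, a protease that trims LC3 relatives, was higher by 0.39 and 0.48. Of 7 other measured genes there, 2 were called higher and 1 lower in deprived medium, and 2 and 2 in control medium. Over all genes, 24.2% were called higher and 23% lower with VHL in deprived medium, and 23.1% and 23% in control medium.

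**Figure D4:**
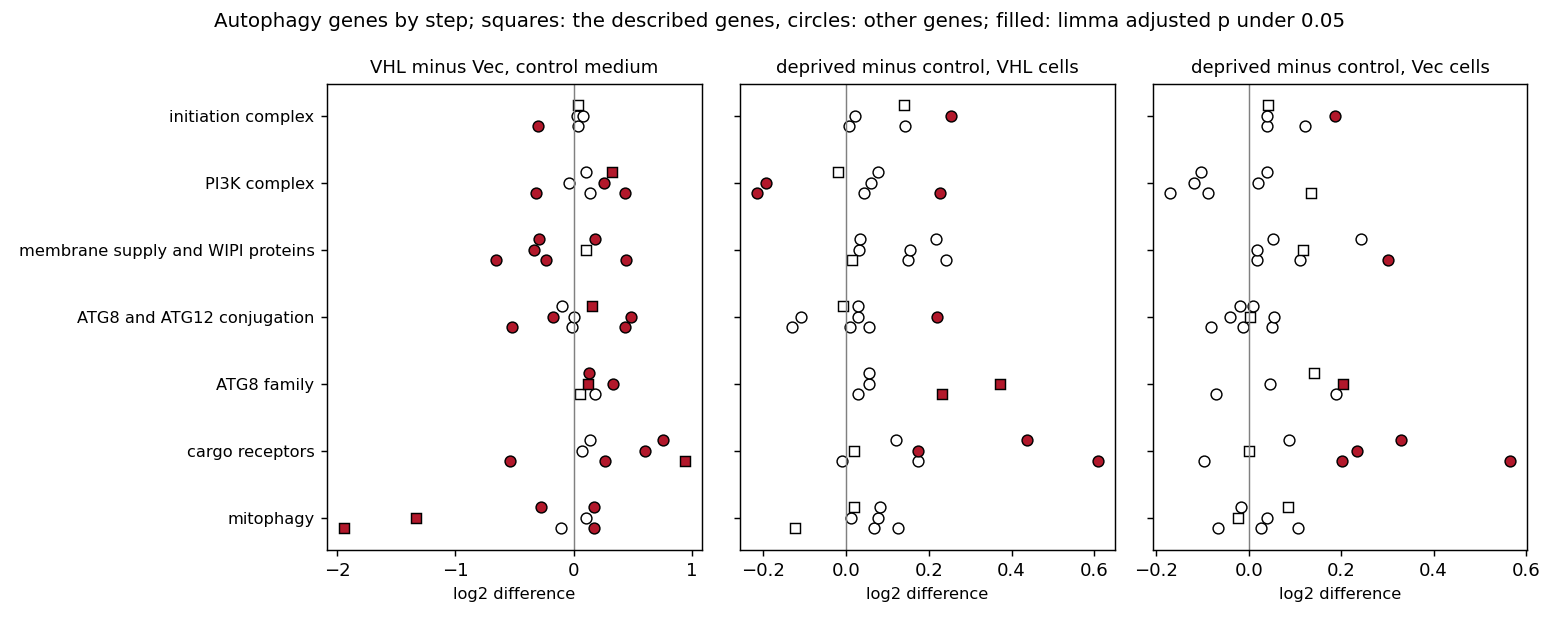
Log2 differences (x axis) of autophagy genes in 7 lists, with squares for the described genes other than DEPP1, circles for other genes and filled symbols where the limma adjusted p was under 0.05. In the VHL minus Vec panel (control medium) BNIP3 and BNIP3L lie at -1.94 and -1.33, away from the other mitophagy genes, and in the deprivation panels the points farthest to the right are the cargo receptors RETREG1 in VHL cells (0.61) and CALCOCO2 in Vec cells (0.57).

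The patterns of DEPP1, BNIP3 and BNIP3L, the genes with the widest range of group means, were set against those of all other genes over the 12 arrays. BNIP3 was most like P4HA1, a collagen-modifying enzyme (Pearson r = 0.999), GNG4 (0.999) and NT5E (0.998). DEPP1 was most like TFDP1 (0.999), DNAJC9 (0.998) and ZNF395 (0.998), and BNIP3L was most like ENPEP (0.995), SYNC (0.995) and CEP15 (0.993). A total of 882, 900 and 695 genes had r over 0.95 with DEPP1, BNIP3 and BNIP3L, since the 12 arrays share the same split into VHL and Vec cells, so these names describe the split and no more.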

How the data were processed

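Total RNA of 12 samples was measured on single-colour Affymetrix arrays, with biotin-labelled targets made per the labels' protocols with an RNA amplification kit. The authors deposited log2 values, a unit read from the values themselves, which ran from 3.26 to 14.79, and the authors' summarization and normalization are not given in the sources used here. Array upper quartiles ran from 9.15 to 9.18. No detection calls are used, and the number of arrays limits the precision.

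Of 22215 probe sets, 19064 named 1 gene, 1043 several and 2108 none. Of the 19064, 19052 took their symbol from RefSeq (GRCh38.p14), whether or not it differed from the one on the array. The probe set with the highest mean stood for each of 11963 genes. A probe set that names both GABARAPL1 and GABARAPL3 was left out. With limma 3.58.1 (R 4.3.3), the 12 arrays were fitted together with a mean for each of the 4 groups. P-values are two-sided and adjusted by the Benjamini-Hochberg method over 11963 genes, or for single probe sets over the 19064. A gene is called at an adjusted p under 0.05. Errors after ± are standard errors. The script was tested on simulated data. Members, lists, motifs and the naming rule (the members, up to 2 called genes of each list and comparison, and the 3 most similar genes) were chosen with earlier results of these data known.

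The replicate numbers are shared between groups. Alternatives were quantile normalization, median centring, a filter on the lowest 25% of genes, averaging the probe sets of a gene, taking single probe sets, leaving out probe sets ending in _x_at or _s_at, a variance trend with robust moderation, only the compared groups, the replicate block and leaving out each array.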

Additional observations from a re-analysis of the deposited data

How the results depend on the processing

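The lower BNIP3 and BNIP3L and higher SQSTM1 in VHL cells were called in both media under every alternative that measured them. Of 775 recomputed single-gene results, 57 lost their call in the same direction and 5 gained one in the same direction. Of results called on at least one side, 3 turned sign, all 3 with another probe set, at 0.22 for BECN1 (a call gained) and 0.063 for DEPP1 without cystine in VHL cells and -0.000697 for ATG12 (VHL minus Vec, deprived medium). A further 54 results that were not called either way changed sign. The cause was not tested. When probe sets with the endings _x_at and _s_at are left out, 5 of the 10 genes and 8369 genes in all are left, and the counts of described genes called were 0 and 0 for deprivation in VHL and Vec cells and 2 and 3 for VHL against Vec in deprived and control medium, with 771, 233, 3505 and 3427 genes called in all. With only the groups compared, deprivation called 835 genes in VHL cells and 311 in Vec cells, where DEPP1 was the 1 described gene left. A variance trend with robust moderation gave 45 genes for the difference of the responses. Leaving out 1 array at a time, deprivation called 764 to 1302 genes in VHL cells, and 253 to 303 genes with 1 described gene in Vec cells, and VHL against Vec in deprived medium called 4 to 9 described genes.

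Residuals of arrays with the same replicate number correlated between -0.268 and 0.235 over 18 pairs (median 0.0526), and for 5 of 12 arrays the most similar one shared its number, so the numbers were not taken to pair the samples. With the replicate block, deprivation called 1326 genes in VHL cells and 434 in Vec cells, and 3 and 2 of the described genes. Centring moved the split of deprivation calls in VHL cells to 550 higher and 873 lower, against 737 and 655. Dim values limit the folds of DEPP1.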

Other observations

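Lysosomal genes, whose products degrade the cargo that autophagy delivers, differed between the lines in one direction among those called. Of 15 measured, 8 were higher with VHL and 0 lower by limma in each medium, where 24.2% of all genes were higher and 23% lower in deprived medium and 23.1% and 23% in control medium (at an unadjusted p under 0.05, 0 lower in deprived and 1 lower in control medium), with medians of 0.20 in deprived and 0.17 in control medium. ATP6V1A, a subunit of the proton pump, was higher by 0.94 ± 0.08 in deprived medium (limma adjusted p = 2.64e-07) and by 1.13 ± 0.08 in control medium (4.61e-08), and CTSD, the protease cathepsin D, was higher by 0.40 ± 0.05 in deprived medium (2.83e-05). Without cystine 1 of 15, CTSA, rose in VHL cells (0.16 ± 0.05, limma adjusted p = 0.0456), and 0 were called by limma in Vec cells (3 higher and 0 lower at an unadjusted p under 0.05).

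Among 9 transcription factors tied to autophagy genes, 2 were higher and 5 lower with VHL in deprived medium (24.2% and 23% of all genes). In control medium 1 was higher and 6 were lower (23.1% and 23% of all genes). TFE3, a relative of TFEB, was lower by a log2 difference of -0.99 ± 0.05 in deprived medium (limma adjusted p = 7.02e-09) and -1.07 ± 0.05 in control medium (3.52e-09). DDIT3, the stress factor CHOP, rose without cystine by 1.54 ± 0.06 in VHL cells and by 0.93 ± 0.06 in Vec cells, and this difference of 0.60 ± 0.08 between the lines was called (limma adjusted p = 0.0100). ATF4 rose by 0.44 ± 0.04 in VHL cells and was not called in Vec cells (0.11 ± 0.04, limma adjusted p = 0.170). Its difference of 0.33 ± 0.06 between the lines was also called (limma adjusted p = 0.0416). None of the 10 autophagy and mitophagy genes described above showed such a difference by the same test, which called 0.134% of all genes.

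The probe set that names both GABARAPL1 and GABARAPL3 averaged 9.07 ± 0.14 in VHL deprived cells and 8.77 ± 0.06 in VHL control cells, and 8.86 ± 0.02 in Vec deprived cells and 8.71 ± 0.16 in Vec control cells (log2, SD, n = 3). The lowest VHL deprived array, at 8.91, lay above the highest VHL control array, at 8.84.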
